A study of Mus musculus with 12 samples.

Results

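Keratins are the intermediate filament proteins of epithelial cells. The genes described here are all 51 rows of the deposited per-library gene table whose symbol is Krt followed by a number and at most 1 letter, out of 27129 genes in the table, and genes of keratin-associated proteins were left out. They were read in the pituitaries of mice at postnatal day 0, dissected free of the posterior lobe. The 6 control glands carried 1 floxed and 1 intact Isl1 allele, written Isl1+/fx, and a Cre transgene active in progenitor cells of the pituitary. The 6 glands labelled mutant had this transgene too, and their Isl1 alleles were 1 floxed and 1 null, written Isl1fx/-. Both groups thus carried Cre and 1 floxed allele, and differed in the other allele. The series design calls the samples individual, so p-values here speak of the spread among those samples alone. The comparison asks how the glands differ when Isl1, a LIM-homeodomain transcription factor, is targeted in pituitary progenitors.

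A keratin filament is built from heterodimers of 1 type I and 1 type II keratin. Basal cells of stratified epithelia are known for Krt5 with Krt14 and Krt15, and cells above them switch to Krt1 with Krt10 in epidermis or to Krt4 with Krt13 in mucosa. Wounded or fast-growing epithelium is known for Krt6a, Krt6b, Krt16 and Krt17. Single-layered epithelia carry Krt8 with Krt18, joined by Krt7, Krt19 and Krt20 in ducts, bladder or gut, and the hair follicle has its own root sheath and shaft keratins. The 51 genes were placed in these classes from such knowledge. There were 28 type I and 23 type II genes, and by class 3 basal, 12 suprabasal, 4 activation, 5 simple, 8 root sheath and 15 shaft keratins, with 4 in no class.

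Depth was 46204920 to 51535425 fragments per control library and 45415453 to 61533576 per mutant-labelled library. Fragments of growth hormone, the main product of the gland, made up 3.87% to 5.35% of a library. Isl1 stood at 35.4 ± 3.04 CPM (TMM-scaled counts of fragments relative to the library total, SD, n = 6) in controls and at 59.3 ± 4.98 CPM in mutant-labelled libraries. This whole-gene level does not show whether the floxed part was removed, and it goes against a loss of Isl1 transcripts, so the groups are named by their labels throughout. The 3 libraries with low levels of Y-linked genes were control 4, mutant 0 and mutant 3, so sex was not balanced between the groups. Markers of pituicytes, the glia of the posterior lobe, summed to 170 to 233 CPM in controls and 175 to 226 CPM in mutant-labelled libraries.

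At least 1 fragment was found for 50 of the 51 keratins, and Krt32, a hair shaft keratin, was at 0 in all 12 libraries. Genes with an FPKM (fragments scaled to transcript length and library total) of at least 1 in at least 6 libraries were tested in the main fit, which kept 14 keratins. Of those, edgeR's quasi-likelihood test with Benjamini-Hochberg adjustment called 9 higher in mutant-labelled libraries and 0 lower, at an adjusted p under 0.05, and so did DESeq2. The share called among all 15246 genes tested was 4.3% higher and 2.75% lower by edgeR, and 6.13% and 5.29% by DESeq2. At an unadjusted p under 0.05 the edgeR counts of keratins were also 9 and 0, beside 11% and 11.3% of all genes. Krt5 and Krt15 passed the filter through mutant-labelled libraries, so the members are counted here in the same fit without the level filter, which covers all 50 detected keratins.

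In that fit 13 of 50 keratins were higher and 0 lower, where 4% of 24285 genes were higher and 2.08% lower. At an unadjusted p under 0.05, 19 keratins were higher and 1 lower, beside 10% and 9.18% of all genes, which is also the background for the lists given later that were counted in this fit. DESeq2 called 13 keratins higher and 0 lower, beside 5.08% and 3.91% of all genes. The median log2 fold change over the 50 keratins was 0.49, against 0.00 over all 24285 genes. By CPM, all 6 mutant-labelled libraries lay above all 6 controls for 11 keratins and below them for 0. Over all genes with a fragment the share above was 2.98%. The 13 were Krt5, Krt14 and Krt15 of basal cells, Krt4 and Krt13 of suprabasal mucosa, Krt6a and Krt17 of activated epithelium, Krt7, Krt8, Krt18 and Krt19 of simple epithelium, the shaft keratin Krt31, and Krt23. They included 8 of 27 detected type I and 5 of 23 type II genes. In bulk tissue, more cells of a type and more RNA per cell cannot be told apart.

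**Figure D1:**
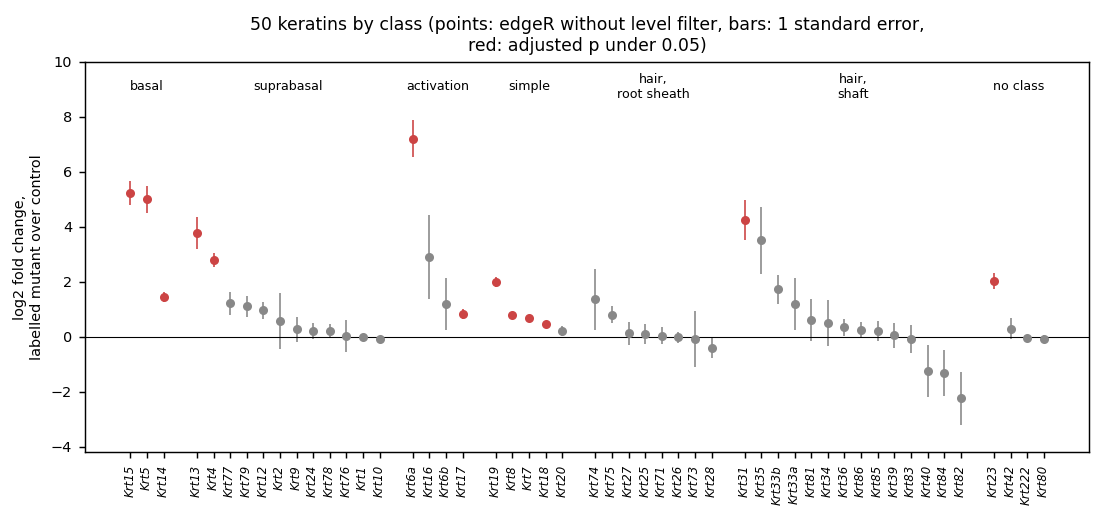
Log2 fold change of each of the 50 detected keratins (mutant-labelled libraries over controls, edgeR without the level filter, bars 1 standard error), grouped by class, with red for an adjusted p under 0.05. The 3 basal keratins and 4 of 5 simple keratins are red, against 1 of the 22 detected hair keratins.

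Promoter sequences are shown for the basal and simple keratins that rose and whose RefSeq start lay within 50 bases of the start in the deposited table, so that abundant simple keratins can be set beside Krt5. They run from 250 bases before the start to 50 bases after it, are taken from RefSeq (GRCm38.p6, the build also called mm10) and read 5′ to 3′ on the strand of the gene. Krt5 lies at chr15:101712856-101713155 and Krt8 at chr15:102004293-102004592, both on the minus strand. Krt7 lies at chr15:101412153-101412452 and Krt18 at chr15:102027966-102028265, both on the plus strand. Capitals mark matches, on either strand, to a TATA box (TATAAA), a GC box (GGGCGG) or the AP-2 motif (GCCNNNGGC).
Krt5: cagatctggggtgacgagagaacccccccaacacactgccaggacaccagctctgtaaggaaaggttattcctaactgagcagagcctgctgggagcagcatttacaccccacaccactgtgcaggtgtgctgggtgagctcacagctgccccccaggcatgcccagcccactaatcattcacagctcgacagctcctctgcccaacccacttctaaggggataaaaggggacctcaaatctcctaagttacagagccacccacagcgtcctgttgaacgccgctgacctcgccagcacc
Krt7: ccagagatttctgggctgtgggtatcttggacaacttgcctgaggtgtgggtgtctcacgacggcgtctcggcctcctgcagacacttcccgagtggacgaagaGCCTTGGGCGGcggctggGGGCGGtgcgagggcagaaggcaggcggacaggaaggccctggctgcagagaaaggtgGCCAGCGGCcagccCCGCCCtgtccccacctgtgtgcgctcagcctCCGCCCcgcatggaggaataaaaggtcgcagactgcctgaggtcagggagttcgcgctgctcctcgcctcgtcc
Krt8: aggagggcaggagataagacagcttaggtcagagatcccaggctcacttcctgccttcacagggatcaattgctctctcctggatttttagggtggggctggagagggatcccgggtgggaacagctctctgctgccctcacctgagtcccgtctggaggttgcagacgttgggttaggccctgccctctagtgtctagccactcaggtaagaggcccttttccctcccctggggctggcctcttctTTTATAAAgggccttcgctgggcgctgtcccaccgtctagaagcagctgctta
Krt18: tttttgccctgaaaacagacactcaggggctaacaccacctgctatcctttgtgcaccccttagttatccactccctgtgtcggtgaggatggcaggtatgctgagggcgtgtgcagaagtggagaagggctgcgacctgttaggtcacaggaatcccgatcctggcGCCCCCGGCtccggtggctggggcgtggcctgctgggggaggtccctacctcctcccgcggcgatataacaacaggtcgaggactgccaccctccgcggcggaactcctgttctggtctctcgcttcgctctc

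The Krt7 window held 4 GC boxes and 2 AP-2 matches, 1 of which overlapped a GC box. The Krt8 window held 2 overlapping TATA matches, at -3 and -1 from the RefSeq start, and the Krt18 window 1 AP-2 match at -83. No match to these motifs or to the AP-1 motif (TGANTCA) lay in the Krt5 window. RefSeq windows were at hand for 34 of the 51 keratins, and a TATA box stood in 52.9% of those 34 against 13.6% of 32544 promoter windows of all genes. A GC box stood in 5.88% against 35.9%, the AP-2 motif in 14.7% against 16.7% and the AP-1 motif in 2.94% against 7.79%. A match is a run of letters in this window and was not tested as a binding site.

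All 3 basal keratins rose, with a median log2 fold change of 4.99 in the fit without the level filter. Krt5, the type II keratin of basal cells, had a lowest, median and highest level of 0.0802, 0.164 and 1.32 CPM in controls and of 7.76, 12.8 and 21.0 CPM in mutant-labelled libraries. Its log2 fold change was 5.0 with a standard error of 0.502 (edgeR adjusted p = 2.56e-05, and 1.62e-05 without the level filter), and the groups did not overlap. Among controls, control 3 was highest, followed by control 5 at 0.698 CPM.

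Krt15, a type I keratin of basal cells and of the hair follicle bulge, stood at 0.18, 0.458 and 2.1 CPM in controls (lowest, median, highest) and at 13.7, 24.1 and 38.4 CPM in mutant-labelled libraries. It rose by 5.24 on the log2 scale with a standard error of 0.454 (edgeR adjusted p = 8.64e-06, and 4.93e-06 without the level filter). Control 3 was again the highest control. Without control 3 the fold of Krt5 moved from 32.0 to 56.8 and that of Krt15 from 37.8 to 65.6. The 6 controls together held 120 fragments of Krt5 and 195 of Krt15.

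Krt14, the usual partner of Krt5, was present in every control. Its lowest, median and highest levels were 3.11, 3.47 and 4.41 CPM in controls and 6.00, 10.2 and 13.4 CPM in mutant-labelled libraries. It rose by 1.45 on the log2 scale with a standard error of 0.183 (edgeR adjusted p = 0.000208), with no overlap. By CPM each of the 3 basal keratins was lowest in mutant 5 and highest in mutant 0 among mutant-labelled libraries. By FPKM mutant 5 was again lowest, but Krt14 and Krt15 were highest in mutant 1. Their FPKM was 7.78 and 22.2 there, against 7.39 and 20.7 in mutant 0.

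**Figure D2:**
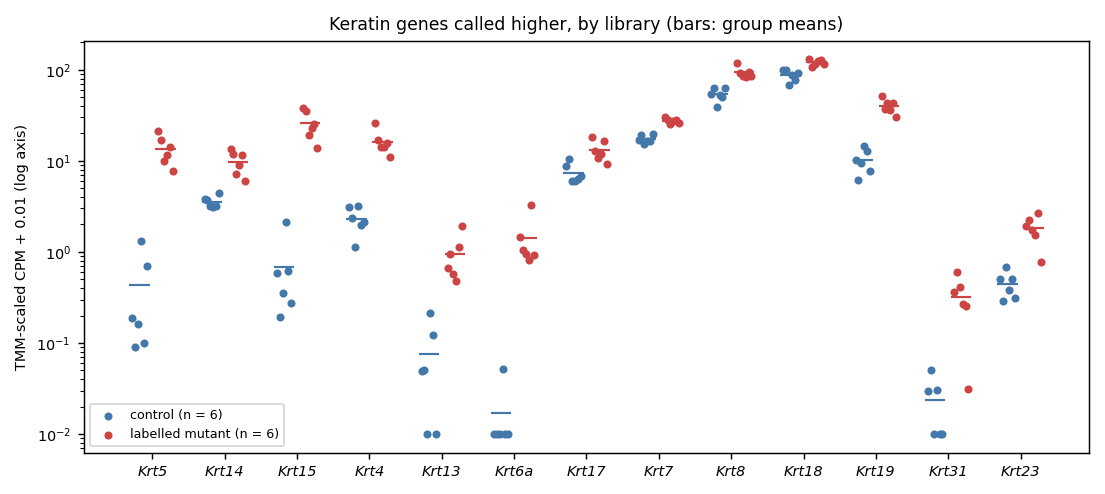
TMM-scaled CPM plus 0.01 (log axis) of the 13 keratins called higher without the level filter, 1 point per library (6 controls and 6 mutant-labelled libraries), with bars at the group means. By CPM the groups overlap for Krt17 and Krt31 only, among these 13.

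Among the 12 suprabasal keratins, 2 rose, both of them keratins of mucosal rather than cornified epithelium, and the median log2 fold change of the class was 0.42. Krt4, the type II member, stood at 1.11, 2.23 and 3.21 CPM in controls (lowest, median, highest) and at 10.9, 14.9 and 25.7 CPM in mutant-labelled libraries. Its log2 fold change was 2.80 with a standard error of 0.245 (edgeR adjusted p = 8.64e-06), without overlap. Krt13, its type I partner, was lower per length, with a mean of 0.801 FPKM in mutant-labelled libraries against 7.74 FPKM for Krt4. It had 19 fragments over the controls and 282 over mutant-labelled libraries. Its levels were 0, 0.0398 and 0.206 CPM in controls and 0.471, 0.798 and 1.94 CPM in mutant-labelled libraries. In the fit without the level filter it rose by 3.77 on the log2 scale with a standard error of 0.578 (edgeR adjusted p = 0.000829), a fold of 13.6 that moved to 23.3 without control 3.

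The cornified partners Krt1 and Krt10 did not pass the test. Krt1, which replaces basal keratins in epidermis, had a mean of 2.51 ± 0.212 CPM in controls and 2.51 ± 0.293 CPM in mutant-labelled libraries (SD, n = 6), with a log2 fold change of 0.00 (standard error 0.0989, edgeR adjusted p = 0.991). Krt10 was at 7.66 ± 1.22 and 7.31 ± 0.543 CPM, with a log2 fold change of -0.07 (standard error 0.0984, edgeR adjusted p = 0.745). The kit kept no strand. The gene Gm11940 is listed on the same interval as Krt10 in the table, so reads may have been split or assigned between these 2 genes.

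The other 8 suprabasal keratins were below the level filter and none was called, with edgeR adjusted p of 0.0992 for Krt12 of the cornea, 0.112 for Krt79 and 0.116 for Krt77. These 3 had unadjusted p under 0.05 and log2 fold changes of 0.97, 1.11 and 1.21. Krt9 of palm and sole, Krt24, Krt76 and Krt78 had group means between 0.10 and 0.298 CPM. Their log2 fold changes were 0.27, 0.21, 0.02 and 0.21, with standard errors of 0.449, 0.303, 0.581 and 0.260.

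Of the 4 activation keratins, 2 rose. Krt17, a type I keratin of injured epithelium and of skin appendages, stood at 6.00, 6.61 and 10.5 CPM in controls and at 9.30, 12.3 and 18.4 CPM in mutant-labelled libraries (lowest, median, highest). The groups overlapped, since control 1 at 10.5 CPM exceeded mutant 5 at 9.30 CPM. Its log2 fold change was 0.84 with a standard error of 0.183 (edgeR adjusted p = 0.0133, exact two-sided permutation p = 0.00433). Without the 3 libraries with low Y-linked levels the call was lost (log2 fold change 0.70, edgeR adjusted p = 0.0969).

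Krt6a, the inducible type II keratin of wounded epithelium, gave 2 fragments over the 6 controls, both in control 3, and 416 over mutant-labelled libraries. The ratio of the 2 summed levels was 193 with a 95% interval of 53.0 to 1597 that covers counting error only. Without control 3 no control fragment remained. With a floor of 3 fragments set for the controls that were left, the ratio was 107. Control 3 was left out after its value was seen, so 107 is no lower limit for the 6 controls, for which that limit was 53.0. Krt6a had a lowest, median and highest level of 0.812, 0.991 and 3.28 CPM in mutant-labelled libraries, and mutant 4 was the highest. The fitted edgeR adjusted p without the level filter was 1.02e-05. Krt6b, a near-identical copy, had 1 fragment in mutant 5 and none elsewhere, so reads could have been split or assigned between the copies. Krt16, the type I partner of Krt6a in wounds, had fragments in mutant 2 and mutant 4 and reached 0.0881 CPM in mutant 4, and it was not called (edgeR adjusted p = 0.344).

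The simple-epithelium keratins had the highest summed FPKM of the classes in both groups, and 4 of 5 rose, with a class median log2 fold change of 0.67. Krt18, the type I keratin of simple epithelia, stood at 67.5, 89.0 and 101 CPM in controls and at 108, 120.2 and 129.7 CPM in mutant-labelled libraries (lowest, median, highest). It rose by 0.47 on the log2 scale with a standard error of 0.0879 (edgeR adjusted p = 0.00547), without overlap by CPM. By FPKM the groups overlapped, since control 1 at 81.3 exceeded mutant 0 at 80.2. The call of Krt18 was lost without the 3 libraries with low Y-linked levels, where the log2 fold change was 0.40 and the edgeR adjusted p 0.0710. Krt8, its type II partner, stood at 39.3, 53.5 and 63.7 CPM in controls and at 83.9, 89.6 and 118 CPM in mutant-labelled libraries. It rose by 0.79 with a standard error of 0.113 (edgeR adjusted p = 0.000575). Mutant 0 lay above the other libraries of its group by CPM, but not by FPKM, at 56.5 against 56.8 in mutant 4.

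Krt7, a type II keratin of ducts and bladder, had the smallest SD relative to its mean of the 5 simple keratins in both groups, at 15.1, 16.8 and 19.5 CPM in controls and 25.7, 27.8 and 30.6 CPM in mutant-labelled libraries. Its log2 fold change was 0.68 with a standard error of 0.0672 (edgeR adjusted p = 2.37e-05). Krt19, a small type I keratin of ducts and of basal cells in mucosa, stood at 6.15, 9.83 and 14.4 CPM in controls and at 30.2, 40.2 and 51.7 CPM in mutant-labelled libraries. It rose by 2.0 on the log2 scale with a standard error of 0.187 (edgeR adjusted p = 1.59e-05). For both genes every library labelled mutant lay above every control. Krt20, a type I keratin of gut and urothelium, was at 0.651 ± 0.193 and 0.756 ± 0.0914 CPM (SD, n = 6) and was not called (log2 fold change 0.21, edgeR adjusted p = 0.583) without the level filter.

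Hair keratins were low, and 1 of 22 detected genes was called. Of the 8 root sheath keratins 0 were called by edgeR or by DESeq2, and 1 had an unadjusted p under 0.05 by either tool. That gene was Krt75 of the companion layer, at 0.255 ± 0.0698 CPM in controls and 0.455 ± 0.243 CPM in mutant-labelled libraries (log2 fold change 0.81, edgeR adjusted p = 0.174). Krt26, with the highest mean FPKM of the root sheath genes, was at 0.60 ± 0.189 and 0.598 ± 0.0821 CPM, and Krt25, Krt27, Krt28 and Krt71 had group means between 0.117 and 0.170 CPM. None of these 5 had an unadjusted p under 0.05.

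Krt31, a type I keratin of the hair shaft cortex, was the 1 hair keratin called. It gave 4 fragments over the controls and 97 over mutant-labelled libraries, a ratio of 22.5 with a 95% interval of 8.5 to 84.2 for counting error only. Its level was between 0.242 and 0.588 CPM in 5 mutant-labelled libraries and 0.0210 CPM in mutant 5, below control 1 at 0.0401 CPM. The fitted log2 fold change was 4.25 with a standard error of 0.720 (edgeR adjusted p = 0.00193), and its fold of 19.0 moved to 28.6 without control 1. Krt33b, a shaft keratin of the same type, missed the threshold (log2 fold change 1.73, edgeR adjusted p = 0.0730), and passed it at 0.0420 without mutant 2. Krt35, a type I keratin of the shaft, had no fragment in controls and levels up to 0.0663 CPM in 4 of the mutant-labelled libraries, with an edgeR adjusted p of 0.149. Krt82, a type II shaft keratin, was the 1 keratin lower at an unadjusted p under 0.05, at 0.0248 and 0.00271 CPM with an edgeR adjusted p of 0.215.

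Krt86 was the single hair keratin that passed the level filter, at 1.67 ± 0.540 CPM in controls and 2.0 ± 0.822 CPM in mutant-labelled libraries (SD, n = 6), and it was not called (log2 fold change 0.27, edgeR adjusted p = 0.639). The table lists Krt81, Krt83, Krt85 and Krt86 on 1 shared interval, chr15:101431014-101491512, so its reads may be split among these copies. Krt36, Krt83 and Krt85 had group means between 0.105 and 0.224 CPM with log2 fold changes of 0.35, -0.08 and 0.21, and none had an unadjusted p under 0.05. In all, 15 of the 51 keratins were under 0.1 CPM in both groups and reached at most 0.133 CPM in a library.

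Of the 4 keratins with no class, Krt23, a type I keratin, stood at 0.281, 0.429 and 0.665 CPM in controls and at 0.757, 1.82 and 2.64 CPM in mutant-labelled libraries (lowest, median, highest). It rose by 2.04 on the log2 scale with a standard error of 0.281 (edgeR adjusted p = 0.000325 without the level filter) and the groups did not overlap. Krt80, a type II keratin, and Krt222, a short keratin-like gene, passed the filter and were not called. Krt80 was at 3.94 ± 0.925 and 3.77 ± 0.557 CPM (edgeR adjusted p = 0.844) and Krt222 at 2.67 ± 0.223 and 2.60 ± 0.160 CPM (edgeR adjusted p = 0.834).

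Levels can be compared between genes per length. By mean FPKM the order in controls began with Krt18 at 67.1, Krt8 at 31.3, Krt7 at 11.7, Krt19 at 8.09 and Krt17 at 5.26. In mutant-labelled libraries it began with Krt18 at 92.6, Krt8 at 53.7, Krt19 at 31.9, Krt7 at 18.6 and Krt15 at 15.7. By this measure Krt19 thus stood above Krt7 in mutant-labelled libraries, where their ranges of 24.8 to 35.9 and 17.5 to 19.7 FPKM were apart, while in controls their ranges of 5.09 to 11.8 and 9.92 to 13.6 FPKM overlapped. Krt15 stood in place 13 in controls at 0.420 FPKM and Krt5 in place 17 at 0.201 FPKM. Krt5 at 6.30 ± 1.95 and Krt14 at 6.21 ± 1.61 FPKM (SD, n = 6) were within their spread in mutant-labelled libraries.

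The summed FPKM of all keratins was 139 ± 18.3 in controls and 256 ± 17.9 in mutant-labelled libraries, a ratio of means of 1.84. FPKM stood lower against CPM in control 0 and mutant 0 than in the other libraries, and the ratio of mean summed CPM, 205 and 387, was 1.89. Type I and type II genes kept a similar balance, with a type I to type II ratio of FPKM sums of 1.84 ± 0.125 and 1.79 ± 0.110. Simple keratins held 85.3% ± 0.593 of the summed keratin FPKM in controls and 77.1% ± 3.53 in mutant-labelled libraries. The basal share was 2.1% ± 0.381 and 10.9% ± 2.91, with every library labelled mutant (7.14% to 14.4%) above every control (1.64% to 2.76%). The suprabasal share was 4.66% ± 0.351 and 5.40% ± 0.407, and the activation share 3.79% ± 0.668 and 3.86% ± 0.642, all as SD with n = 6.

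**Figure D3:**
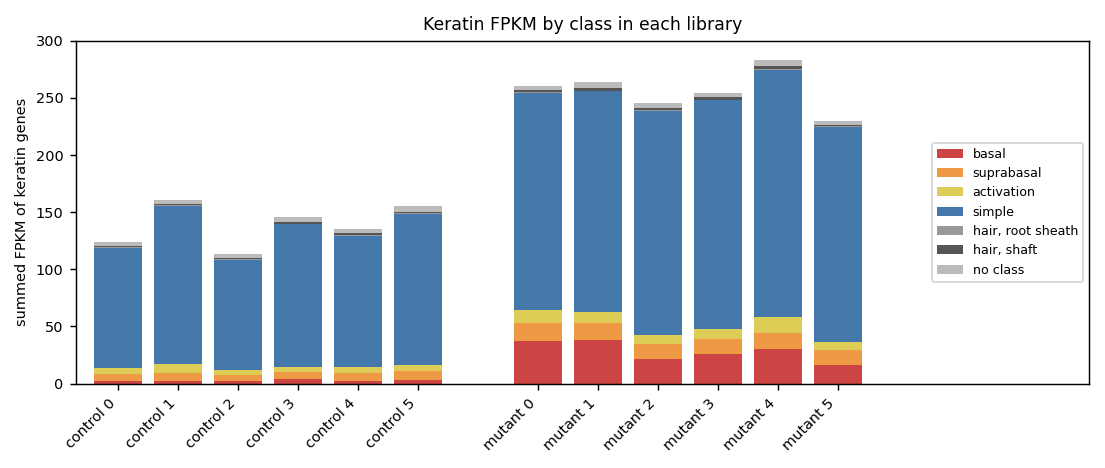
Summed FPKM of the keratin genes in each of the 12 libraries, stacked by class. The bars of mutant-labelled libraries reach 229.9 to 282.8 against 113.6 to 160.8 in controls, and the basal segment grows from 2.40 to 4.01 in controls to 16.4 to 38.1.

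Partner keratins were compared as log2 ratios of their fragments within each library, type II over type I, which needs no scaling between libraries. Of 9 listed pairs 6 had enough fragments, and p-values are from exact two-sided permutation tests adjusted over the 6 pairs, with 0.00216 the smallest unadjusted p that the splits of 12 libraries allow. The Krt5 to Krt14 ratio was -3.81 ± 1.57 in controls and 0.44 ± 0.126 in mutant-labelled libraries (SD, n = 6), a difference of 4.26 (exact permutation adjusted p = 0.00433). The Krt5 to Krt15 ratio was -0.96 ± 1.33 and -0.92 ± 0.0963, a difference of 0.04 (exact permutation adjusted p = 0.937). It ran from -2.61 to 1.38 among controls, where both genes were near 0, and from -1.07 to -0.82 among mutant-labelled libraries.

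For Krt8 to Krt18 the log2 ratio rose from -0.70 ± 0.119 to -0.37 ± 0.160, a difference of 0.33 (exact permutation adjusted p = 0.00649). For Krt8 to Krt19 it was 2.45 ± 0.622 and 1.22 ± 0.183, a difference of -1.23, and for Krt7 to Krt19 0.83 ± 0.564 and -0.52 ± 0.221, a difference of -1.35 (exact permutation adjusted p = 0.00433 for each, n = 6). Krt19 therefore rose more than either of its type II partners within the same libraries. The Krt1 to Krt10 ratio was -1.59 ± 0.233 and -1.54 ± 0.265, a difference of 0.05 (exact permutation adjusted p = 0.870).

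Within the 6 mutant-labelled libraries, keratins were compared with Krt5 on log2(CPM + 0.1), in 13 correlations with exact permutation p adjusted over the 13. Krt15 had a Pearson r of 0.986 (adjusted exact permutation p = 0.00903), Krt14 of 0.976 (0.0120) and Krt4 of 0.943 (0.00903), and Spearman's rho was 1 for each (adjusted exact permutation p = 0.0120). The ranks of Krt14 and Krt15 hold for CPM, since by FPKM both were highest in mutant 1 and Krt5 in mutant 0. Krt7 had an r of 0.944 (adjusted exact permutation p = 0.0316) and a rho of 0.943 (0.0433). These values of Krt7 hold for CPM only. By FPKM Krt7 was lowest of the group in mutant 0, at 17.5, where Krt5 was highest, at 8.81. On CPM the r of Krt15, Krt14, Krt4 and Krt7 stayed between 0.909 and 0.973 without mutant 0 and mutant 5, the libraries farthest from the median of Krt5. Krt17 had an r of 0.888 (adjusted exact permutation p = 0.0614) and a rho of 0.943 (0.0433), and its r was 0.596 without those libraries. The r of Krt8 was 0.827, of Krt19 0.737 and of Krt18 0.340, with adjusted exact permutation p of 0.0782, 0.172 and 0.551. That of Krt19 rested on mutant 0 and mutant 5, and was -0.277 without them. Krt80, which was not called between the groups, had an r of 0.805 (adjusted exact permutation p = 0.119). Krt1, Krt10, Krt86 and Krt222, also not called, had r between -0.409 and -0.189. All points share a library, so these values describe 6 glands.

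**Figure D4:**
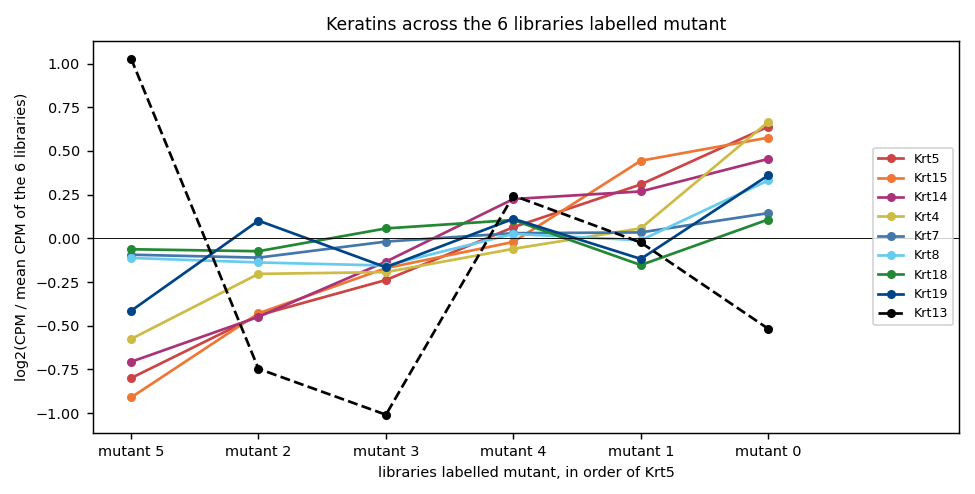
Log2 of the CPM over the mean CPM of the 6 mutant-labelled libraries, 1 line per keratin, with libraries in order of Krt5. Krt5, Krt14, Krt15 and Krt4 keep the order of the libraries, while Krt13 is highest in mutant 5, where the others are low.

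Krt13 did not follow that order. Its highest level, 1.94 CPM, was in mutant 5, where Krt5, Krt14, Krt15, Krt4 and Krt17 were at their lowest. Krt6a was highest in mutant 4 at 3.28 CPM, more than its level of 1.46 CPM in mutant 0.

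The keratins lie in 2 clusters, 27 genes over 1037 kb on chromosome 11 (chr11:99233098-100269871, mm10) and 24 over 682 kb on chromosome 15 (chr15:101349571-102032026), which ends with the type I gene Krt18. On chromosome 11, Krt13 (chr11:100117596-100121495), Krt15 (chr11:100131759-100135949) and Krt19 (chr11:100140811-100145919) follow one another and all rose. Krt9, the next keratin, was not called, and Krt14 after it rose. On chromosome 15, Krt6a (chr15:101689928-101694305) lies next to Krt5 (chr15:101707070-101712891), and Krt8 (chr15:101996711-102004342) next to Krt18 (chr15:102028216-102032026). The table lists 40 other genes within the first cluster and 10 within the second. Of these, Gm11940 and 4732456N10Rik passed the level filter, with log2 fold changes of 0.14 and -0.02 and edgeR adjusted p of 0.723 and 0.976. Gm11940 shares the interval of Krt10, so its level may hold reads of that gene.

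**Figure D5:**
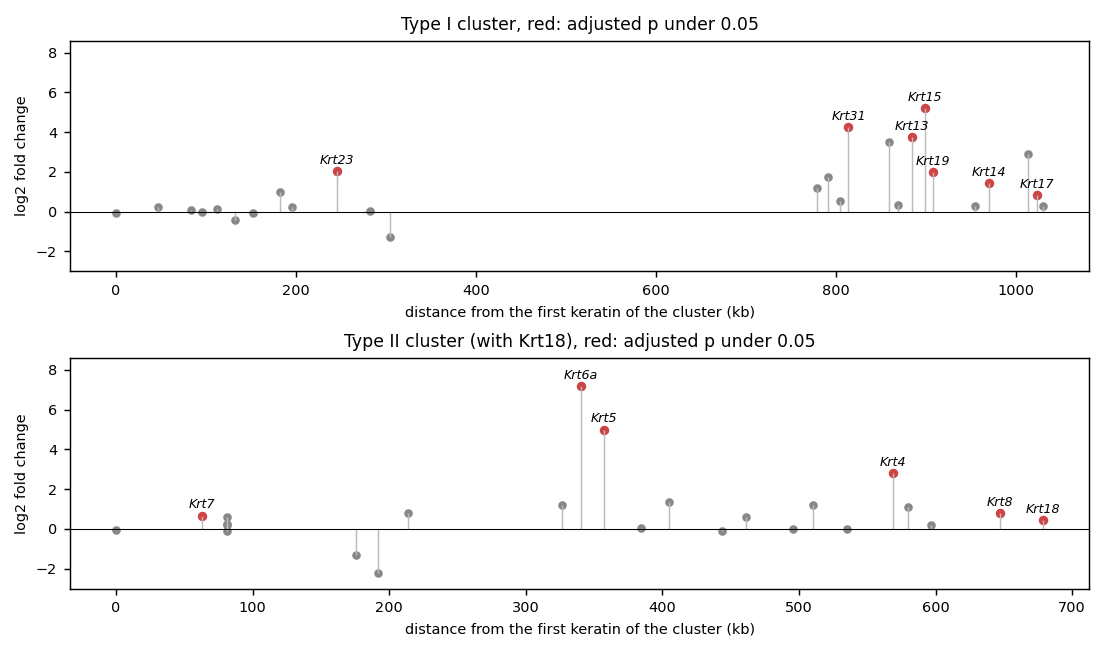
Log2 fold change (edgeR without the level filter) of each detected keratin against the distance of its start from the first keratin of its cluster, in kb, with red for an adjusted p under 0.05. The red genes are 7 of the upper cluster and 6 of the lower cluster, Krt18 included.

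Genes that anchor keratins at desmosomes and hemidesmosomes were read from a list of 15, all of which passed the level filter. Pkp1 passed it through mutant-labelled libraries, and without the level filter 6 of the list rose and 0 fell by edgeR. In the main fit 6 also rose and 0 fell by edgeR, and the median log2 fold change was 0.15. In the same fit 8 were higher and 1 lower at an unadjusted p under 0.05, beside the 11% and 11.3% of all genes in it, and DESeq2 called 7 higher and 0 lower. Dsp, the plakin that ties keratins to desmosomes, rose from 34.5 ± 3.95 to 71.6 ± 11.03 CPM (log2 fold change 1.05, edgeR adjusted p = 1.90e-05). Itgb4, the hemidesmosomal integrin, rose by 0.80 (edgeR adjusted p = 0.00140) and Eppk1, a plakin that binds keratins, by 0.54 (edgeR adjusted p = 0.00450). In a list of 9 with the desmosomal cadherins and Perp, 3 rose and 0 fell without the level filter, Dsg3 by 2.02, Dsc3 by 0.86 and Dsc2 by 0.53. The classic partners Jup and Plec, at 143 and 139 CPM in controls, had log2 fold changes of 0.09 and 0.10 in the fit with the level filter and were not called.

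Of 13 transcription factors of keratin-rich epithelia, 8 rose and 0 fell in the edgeR fit without the level filter, with a median log2 fold change of 0.49. At an unadjusted p under 0.05, 11 were higher and 1 lower, and DESeq2 called 10 higher and 0 lower. Trp63, which controls basal cell identity and Krt5 and Krt14 in epidermis, rose by 2.05 in the edgeR fit, from 2.08 ± 0.640 to 8.67 ± 2.57 CPM (edgeR adjusted p = 3.36e-05). Ehf, an ETS factor of epithelia, rose by 1.56 (edgeR adjusted p = 4.78e-06), and Grhl2, a regulator of epithelial junctions, by 0.47 (edgeR adjusted p = 0.00371).

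Of 17 genes of the cornified envelope, which seals terminally differentiated keratinocytes, 13 had a fragment and 5 of these rose and 0 fell without the level filter. At an unadjusted p under 0.05, 7 were higher and 0 lower, and DESeq2 called 5 higher and 0 lower. Dmkn, a secreted protein of stratified epithelia, rose by 3.71 in the edgeR fit without the level filter (edgeR adjusted p = 1.78e-06) and Krtdap, a keratinocyte differentiation protein, by 0.87 (edgeR adjusted p = 0.0291). Lor, the main envelope protein, was at 2.07 and 2.09 CPM. Among 16 other intermediate filament genes, 0 rose and 1 fell in the edgeR fit without the level filter, while 1 had a rise and 4 a fall at an unadjusted p under 0.05, and DESeq2 called 1 higher and 2 lower. The gene that fell was the neurofilament Nefm, by 0.54 on the log2 scale (edgeR adjusted p = 0.00158), and Vim, the mesenchymal filament, was at 269 and 280.1 CPM without a call.

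Some markers of other epithelia were also higher in mutant-labelled libraries. Of 9 genes of airway and nasal secretory epithelium 7 rose without the level filter, and their sum ranged from 4.15 to 9.88 CPM in controls and from 65.0 to 155 CPM in mutant-labelled libraries. Among the latter it was highest in mutant 0 and lowest in mutant 5, as were the basal keratins by CPM. The sums of the transcription factors above and of the multiciliated, mesothelium and epidermis genes below had the same extremes. Those of the cornified envelope and desmosomal cadherin lists were highest in mutant 0 but lowest in mutant 3. Among mutant-labelled libraries, the sums of the olfactory neuron and leukocyte lists, with no called gene, were also highest in mutant 0. Those of the erythroid and pituicyte lists, also without a call, were not. A peak in mutant 0 was thus not limited to lists with genes that rose. All these sums are by CPM, against which FPKM stood lower in mutant 0, and FPKM sums of the lists were not made. Scgb1a1, a defining club cell gene, stayed near 0 at 0.00343 and 0.00271 CPM. The 4 multiciliated cell genes in the table all rose, with sums of 72.4 to 82.8 CPM in controls and 104 to 156 CPM in mutant-labelled libraries. Of 3 mesothelium genes, Msln rose and Wt1 and Upk3b did not pass, with sums of 1.18 to 3.22 and 16.7 to 33.4 CPM. In mutant-labelled libraries Msln alone had a mean of 21.9 CPM, where the sum had a mean of 22.3 CPM.

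Of 7 epidermis genes, Krtdap and Dmkn rose, while Krt1, Krt10, Lor, Flg and Ivl did not pass, and the list summed to 11.6 to 14.96 CPM in controls and 15.5 to 20.5 CPM in mutant-labelled libraries. Of 4 melanocyte and hair genes 1 rose, Tyrp1, with sums of 1.67 to 2.44 and 2.11 to 2.89 CPM. The sums of 3 olfactory neuron genes were 12.5 to 15.3 and 13.8 to 18 CPM, and those of the erythroid genes listed were 21.1 to 39.3 and 19.5 to 44.3 CPM. The leukocyte genes in the table summed to 4.62 to 6.01 and 3.49 to 5.79 CPM. By edgeR and by DESeq2, 0 genes of the olfactory, erythroid, leukocyte and pituicyte lists were called, and 0 by edgeR and 1 by DESeq2, a pituicyte gene, had an unadjusted p under 0.05. Of 6 pituitary endocrine genes 3 fell. The part of any of these cell types in the keratin levels was not tested.

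In the authors' deposited table, 19 of the 51 keratins were tested and 10 were marked, all higher, with q up to 0.05 and a fold from 1.5 up. Krt18 had a q of 0.00120 in the authors' deposited table but a log2 fold change of 0.46, under that fold, and was not marked. Krt6a had a log2 fold change of 7.64 and a q of 0.263 in the authors' deposited table and was not marked. Krt13 and Krt23, under the level filter used here, were marked in the authors' deposited table with log2 fold changes of 3.84 and 2.05, and Krt31 was not tested there.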

How the data were processed

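An Ambion micro kit gave the RNA and the TruSeq RNA kit v2 the libraries, with no strand kept, per the labels' protocols. Cuffdiff 2.1.1, Cufflinks, TopHat2 2.0.9, Bowtie2 2.1.0, FastQC 0.10.1 and the build mm10 are named in the submitters' processing notes. The deposited table gives estimated counts of fragments and FPKM per gene and library, per the file headers. Of the nonzero fragment values of a library, 89.99% to 90.41% were exactly whole, and all were rounded to whole numbers. Scaled fragments, in 12 more columns, were left out. The authors' deposited comparison table gives a log2 fold change and a q-value (an adjusted p-value) per gene.

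Samples were grouped by genotype. The level filter asked for FPKM of 1 or more in 6 or more of the 12 libraries and left 15246 genes to test, with 11883 set aside. They were tested by edgeR 4.0.16 in R 4.3.3, a quasi-likelihood test with TMM scaling and no covariate. The same fit over the 24285 genes with a fragment served to count over all detected keratins. CPM values are fragments relative to the TMM-scaled library total. Standard errors are the log2 fold change over the root of the F statistic. Partner ratios had 0.5 fragment added to each gene and were tested by exact permutation (scipy 1.17.1). Figures were drawn with matplotlib 3.10.9. Locus starts in the table count from 0 and are given here counted from 1. Intervals and floors cover counting error only.

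Named were every keratin that passed the filter, those under it with a mean of at least 0.1 CPM in a group, up to 3 called genes per pathway list, Isl1 and Gh, and the marker lists by their counts and sums. Krt6b, Krt16, Krt32, Krt35, Krt81, Krt82 and single list members outside the rule were named after their values were seen. The members, classes and lists were chosen with earlier results of these data known. The alternatives were other filters, scalings and pseudocounts, limma 3.58.1, DESeq2 1.42.0, a replicate block, and fits without single or several libraries. Those of the fit without the level filter were added after the data were seen.

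Counts were simulated for 15246 genes of this comparison, with 50 changed at each fold. Changed genes were drawn from those with an expected mean over 50 fragments per library. In these, edgeR recovered 58% with fold 1.25, 92% with fold 1.5, 98% with fold 2 and 100% with fold 4. Of 15046 unchanged genes 6 were called. Keratins with lower counts and the fit without the level filter were not covered. Chi-square per degree of freedom was 13.9 to 35.3 over the 30 library pairs within groups, above sampling noise, and no library was treated as a duplicate. FPKM and counts are not in the same proportion in control 0 and mutant 0 as elsewhere.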

Additional observations from a re-analysis of the deposited data

Results flagged for a closer look

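The 72 groups of 6 libraries, 2 for each of the 36 keratins with at least 0.1 CPM in a group, were searched for a library whose gap to the nearest other library exceeded Dixon's limit for 6 values. There were 8 such cases, 3 in controls and 5 in mutant-labelled libraries, where chance flags about 1 in 20 groups. The same library could stand apart for several genes, and the 3 cases in controls were all control 3. Control 3 stood above the other controls for Krt15, at 2.1 CPM with the next at 0.599, and for Krt6a, at 0.0412 CPM with the others at 0. It stood below them for Krt75, at 0.123 CPM with the next at 0.244. Mutant 4 stood above the other libraries in its group for Krt6a, at 3.28 CPM with the next at 1.46, and for Krt75, at 0.925 CPM with the next at 0.486. It stood below them for Krt1, at 1.94 CPM with the next at 2.50. Mutant 0 was highest for Krt8, at 117.6 CPM with the next at 95.1, and mutant 5 was lowest for Krt83, at 0.0421 CPM with the next at 0.110. By FPKM mutant 0 did not stand apart for Krt8, at 56.5 against 56.8 in mutant 4.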

How the results depend on the processing

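Over 22 alternatives of the main fit, 7 to 13 keratins were called higher and 0 lower, and over 15 of the fit without the level filter 13 or 14 were higher and 0 lower. The basal keratins, Krt4, Krt7, Krt8 and Krt19 kept their direction and their call in all 22. Without the 3 libraries with low Y-linked levels, Krt17 and Krt18 lost their calls, and over all genes 379 were higher and 144 lower in place of 656 and 419, with fewer samples. The count of genes lower was 807 by DESeq2, 214, 215 and 216 by limma on log2 of FPKM plus 0.1, 0.5 and 1, and 197 to 443 when single libraries were left out; the cause was not tested. Leaving out control 3 moved the folds of Krt5, Krt15, Krt13 and Krt6a by over 1.5 times, and leaving out control 1 that of Krt31; few control fragments limit the precision of these folds, and other depths were not tried.

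Values near 0 changed sign. Krt1 (0.00266) became -0.00493 with edgeR's own filter, -0.00532 with no filter, -0.00532, -0.00356 and -0.00250 with limma and 0.1, 0.5 and 1 added, -0.0345 without both libraries numbered 0, -0.0196 without the libraries with low Y-linked levels, and -0.0382 to 0.0656 without single libraries. Krt10 became 0.0353 without the low Y-linked libraries, and Krt80 ran from -0.121 to 0.0508 without single libraries. The Krt5 to Krt15 log2 ratio difference became -0.00866 and -0.0842 with 1 and 2 fragments added and -0.507 on FPKM plus 0.1, and ran from -0.294 to 0.504 without single libraries. That of Krt1 to Krt10 ran from -0.00536 to 0.156. For these signs the cause was not tested.

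The labels do not say that the replicate numbers pair samples, and the main fit had no block. Same-numbered libraries deviated together with correlations from -0.0535 to 0.303, and 4 of 6 correlated best with their own number. These values do not settle whether the numbers mark pairs or a shared batch. With the number as a replicate block, 9 keratins were higher and 0 lower, and 672 genes were higher and 401 lower. The block changed no call of a keratin, and Krt1 became -0.00141.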
